A study of Rattus norvegicus and Mus musculus with 18 samples.

Results

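Collagen chain genes were followed in the mouse samples of a study of skin wounds in adult mice and rats. The members were all protein-coding genes with symbols of the form Col, number, a, number, found by pairing the Ensembl identifiers of the mouse table with GENCODE symbols. They numbered 44 genes of 27 collagen types, of 49548 genes listed. Mouse wound dermis (3 libraries) was compared with mouse wound epidermis (3 libraries), both from adult whole skin tissue collected 1 day after the scab detached. The study's description gives this stage as the one at which hair follicles regenerate in mice. No strain, sex, genotype or treatment beyond wounding is given in the sources used here, nor is it stated that the replicates are different animals. The p-values below therefore measure only the spread between these libraries, which may be technical. Libraries were made by SMART-seq2, which copies polyadenylated RNA into full-length cDNA. The values are TPM, each gene's length-corrected share of all transcripts in a library scaled to a fixed total, and thus corrected for transcript length, so levels of different genes can be set side by side.

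Collagens are extracellular proteins in which chains wind around each other into a triple helix, and each chain is encoded by its own gene. The helix requires glycine at the first position of each amino acid triplet. Fibrillar collagens form the tensile fibrils of the dermis, made mainly by fibroblasts. Network-forming type IV collagen builds basement membranes, and types XVII and VII hold the epidermis to the dermis: type XVII spans the keratinocyte membrane at hemidesmosomes, and type VII forms the anchoring fibrils beneath the basement membrane.

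The repeat that defines the family can be read in the coding sequences. The stretches below are the start of the longest unbroken run of glycine triplets in 6 members, 21 codons each, 5′ to 3′ on the coding strand, with the glycine codon (GGN) that opens each triplet in capitals. Glycine codons elsewhere in a triplet are in lower case. They are shown to contrast the 3 most abundant dermal chains with the basement membrane chain Col4a1 and with the 2 chains that led in the epidermis. The sequences are those of GENCODE M21 transcripts (build mm10), and all bases lie in coding exons.
Col1a1: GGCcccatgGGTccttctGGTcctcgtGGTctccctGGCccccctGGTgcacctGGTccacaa
Col1a2: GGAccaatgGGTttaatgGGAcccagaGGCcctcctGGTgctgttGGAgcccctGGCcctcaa
Col3a1: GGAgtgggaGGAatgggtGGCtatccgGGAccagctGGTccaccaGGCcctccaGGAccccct
Col4a1: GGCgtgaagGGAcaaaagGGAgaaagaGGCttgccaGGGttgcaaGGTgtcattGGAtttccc
Col7a1: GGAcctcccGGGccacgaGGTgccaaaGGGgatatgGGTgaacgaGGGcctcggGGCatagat
Col17a1: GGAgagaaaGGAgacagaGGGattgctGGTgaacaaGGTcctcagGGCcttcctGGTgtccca

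They lie at chr11:94939451-94939912 on the plus strand for Col1a1 (3 exons), chr6:4512406-4515489 plus for Col1a2 (3 exons), chr1:45323762-45325386 plus for Col3a1 (2 exons), chr8:11247051-11267614 minus for Col4a1 (2 exons), chr9:108978632-108978847 plus for Col7a1 (2 exons) and chr19:47664982-47665875 minus for Col17a1 (2 exons). Every member held such runs, and their length differed by class. The longest run of Col1a1 was 338 triplets, that of Col1a2 339 and that of Col3a1 344, and each of these chains had 2 runs of 10 triplets or more. Col4a1 had 18 runs of 10 or more, the longest of 40 triplets, and Col7a1 had 18, the longest of 75. Col17a1 had 5, the longest of 56, which together took up 24.5% of its codons against 73.3% in Col1a1.

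Summed fibroblast and keratinocyte markers separated the compartments, although dermis libraries held keratinocyte transcripts. The 5 fibroblast markers summed to 4804 to 8651 TPM in dermis and 19.4 to 38.6 TPM in epidermis, and the 6 markers of differentiating keratinocytes to 26670 to 64100 TPM in epidermis. In dermis these 6 summed to 483 TPM in replicate 1 and 237 TPM in replicate 3, but to 10600 TPM in replicate 2. The 5 basal keratinocyte markers summed to 1840, 3328 and 241 TPM in dermis replicates 1, 2 and 3 and to 6675 to 17580 TPM in epidermis. Not every marker separated: the basal marker Itgb4 and the Schwann cell marker Mbp overlapped between compartments. Of the pericyte and smooth muscle markers, Notch3 was higher in every epidermis library, while Rgs5, Myh11, Des and Cspg4 were lower. No adipocyte marker exceeded 0.52 TPM and no cartilage marker exceeded 2.07 TPM in any library. Of the skeletal muscle markers, Tnnt3 stood at 7.56, 5.48 and 12.4 TPM in dermis, and Acta1 at 15.8 TPM in dermis replicate 3. Ckm and Myh4 did not exceed 1.2 TPM. Among 15982 genes tested with limma on log2(TPM + 1), 39.3% were lower and 17.0% higher in epidermis at an adjusted p under 0.05, and the median difference was -0.42. Read depth is unknown, since TPM does not keep it.

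Collagen transcripts made up a far larger share of dermal than of epidermal mRNA. The 44 genes together took 7.33%, 4.56% and 6.83% of all TPM in dermis replicates 1, 2 and 3, against 0.0289%, 0.0160% and 0.0358% in epidermis replicates 1, 2 and 3. In TPM, the sum stood at 62430 ± 14800 in dermis and 269 ± 100.0 in epidermis (SD, n = 3 each). The groups did not overlap, and the difference was -7.91 on the log2 scale (two-sided exact permutation test p = 0.1, the smallest that 3 against 3 libraries allow). Col1a1, Col3a1 and Col1a2 were the 2nd, 4th and 10th most abundant of all genes in dermis, and without these 3 the difference was -5.12. In bulk tissue, fewer collagen-making cells cannot be told apart from less collagen RNA per cell.

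The make-up of the collagen pool differed as well. Fibrillar chains took 89.2% to 91.1% of collagen TPM in dermis and 6.47% to 28.6% in epidermis. In the epidermis, the anchoring fibril chain Col7a1 took 23.0% to 33.6%, transmembrane collagens 21.1% to 29.1% and fibril-associated collagens 15.6% to 23.9%. Transmembrane collagens took at most 0.0844% in dermis, in replicate 2. The fibrillar share of the epidermal pool was highest in replicate 3 and lowest in replicate 2.

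**Figure D1:**
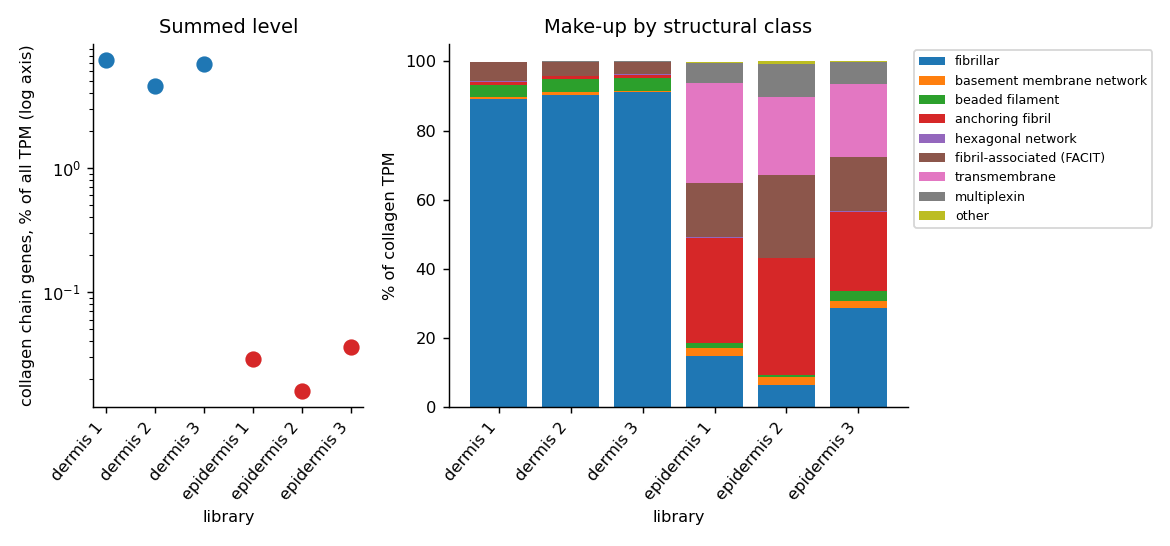
Left, summed level of the 44 collagen chain genes as a percentage of all TPM (log axis), 1 point per library; right, the share of that sum by structural class (bars stacked to 100.0%). The 3 dermis libraries stand at 4.56% to 7.33% and are mostly fibrillar, while the 3 epidermis libraries stand at 0.0160% to 0.0358% and are spread over the anchoring fibril, transmembrane, fibril-associated and fibrillar classes.

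Of the 44 members, 26 reached 1 TPM in at least 3 libraries and were tested. All but 1 of these 26 fell: 25 were lower in epidermis (background 39.3% of genes lower) and Col17a1 was higher (background 17.0% higher). The count of 25 was in part set by the filter, because 17 of the 26 were under 1 TPM in at least 1 epidermis library and passed only with the dermis libraries, where they were high. The other 9, at 1 TPM or more in all 3 epidermis libraries, comprised 8 that were lower and Col17a1. Of the 12200 genes detected in the epidermis in this way, 28.1% were lower and 22.3% higher. The libraries of the compartments did not overlap for any of the 26 tested members, 25 lower and Col17a1 higher, counts that the filter set in part as well. Among all genes tested, 45.3% were lower without overlap and 20.8% higher. Over all 44 members, 34 were lower without overlap, 1 was higher and 9 overlapped. No share over genes below the filter was computed to set beside these. Without the filter all 44 were tested, and 29 were lower and 0 higher at an adjusted p under 0.05. Of the 30354 genes tested in that setting, 6631 were lower and 2644 higher.

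**Figure D2:**
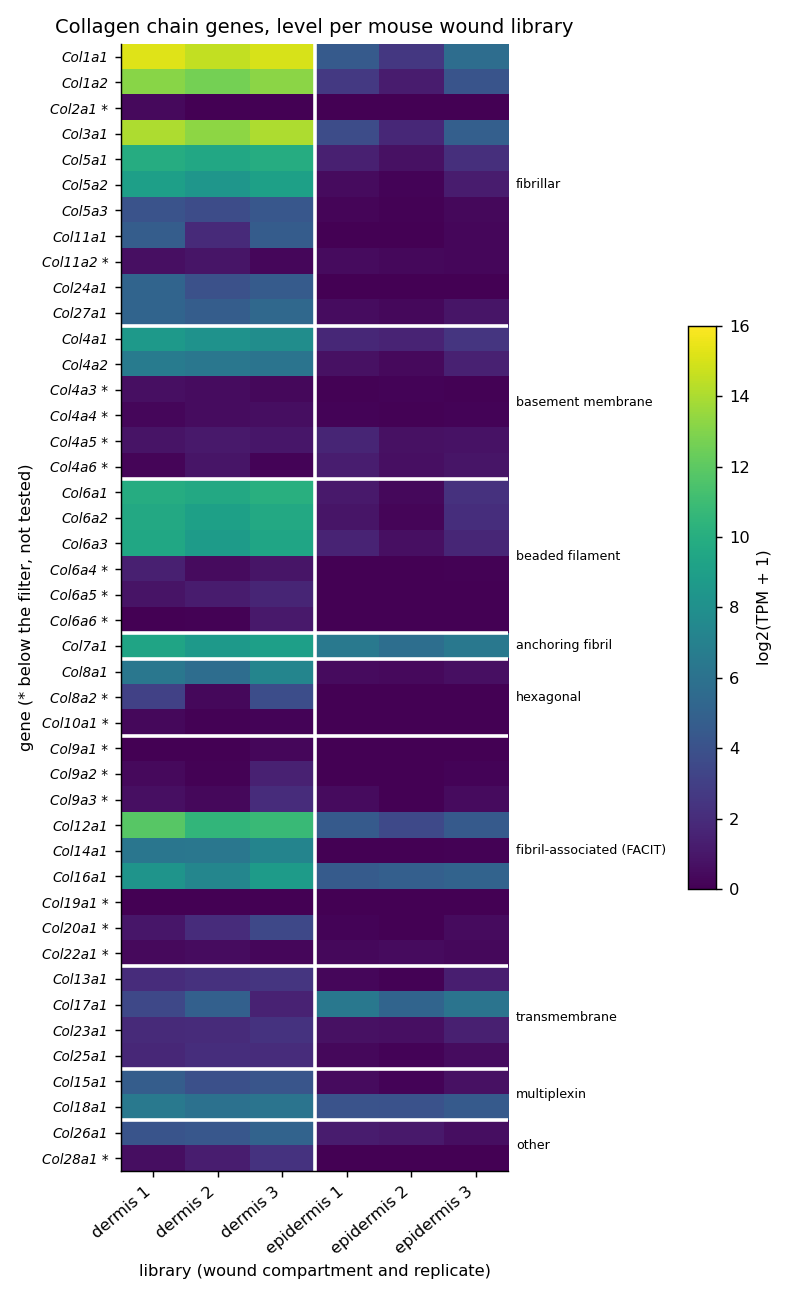
Level of each collagen chain gene, log2(TPM + 1) as colour, in the 3 dermis and 3 epidermis libraries, grouped by structural class; an asterisk marks the 18 genes below the filter. Col1a1, Col1a2 and Col3a1 are the brightest rows in dermis, and Col17a1 is the tested row that is brighter in epidermis.

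The fibrillar chains Col1a1, Col3a1 and Col1a2 held both the highest dermis levels and the largest differences in log2(TPM + 1) among the tested members. As a percentage of the dermis mean, however, the epidermis mean was lowest for Col14a1, at 0.0231% against 0.0819% for Col1a1. By class, the median difference was -8.26 for the 9 tested fibrillar chains and -8.38 for the 3 tested chains of type VI. Apart from Col1a1, Col1a2 and Col3a1, all of these chains were under 1 TPM in at least 1 epidermis library. They passed the filter only with the dermis libraries, and the size of both medians depends on the pseudocount. Col1a1, which encodes the major chain of type I collagen, stood at 38002, 23600.0 and 34097 TPM in dermis replicates 1, 2 and 3, and at 21.8, 5.11 and 51.5 TPM in epidermis replicates 1, 2 and 3. Every dermis library lay far above every epidermis library, and the difference was -10.65 ± 0.72 (SE, adjusted p = 3.6e-05). Its partner chain Col1a2 measured 9219, 6399 and 9492 TPM in the dermis libraries and 5.43, 1.37 and 16.7 TPM in the epidermis libraries (-10.32 ± 0.66, adjusted p = 3e-05). Col3a1, which forms type III collagen, abundant in granulation tissue, reached 16637, 9967 and 17011 TPM across dermis replicates, compared with 12.2, 2.47 and 27.8 TPM across epidermis replicates (-10.33 ± 0.72, adjusted p = 4e-05).

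All 3 chains were lowest in dermis replicate 2 and, within epidermis, lowest in replicate 2 and highest in replicate 3. Without epidermis replicate 2 the differences were -9.82 for Col1a1, -9.59 for Col1a2 and -9.50 for Col3a1, and without epidermis replicate 3 they were -11.37, -11.04 and -11.03. As a percentage of the dermis mean, Col1a1 stood at 0.0683%, 0.0160% and 0.161% in epidermis replicates 1, 2 and 3. The median of the 5 fibroblast markers was 0.0509%, 0.0299% and 0.184% in the same libraries, and the markers' epidermis means ranged from 0.0345% for Lum to 2.13% for Vim. Dcn, Dpt and Pdgfra were lowest in epidermis replicate 2, and Lum and Vim in replicate 1. The part of dermal RNA in these epidermal values was not tested.

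Type V collagen, which joins type I in fibrils and limits their diameter, came after types I and III among the fibrillar chains. Col5a1 had dermis levels of 964, 755 and 971 TPM and epidermis levels of 1.67, 0.68 and 3.41 TPM (-8.37 ± 0.35, adjusted p = 1.1e-05). Col5a2 measured 517, 343 and 555 TPM in the dermis libraries and 0.36, 0.11 and 1.28 TPM in the epidermis libraries (-8.26 ± 0.33, adjusted p = 1.1e-05). Neither chain overlapped between the groups. With a pseudocount of 0.1 TPM in place of 1 TPM the differences were -9.04 for Col5a1 and -9.82 for Col5a2.

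The less abundant fibrillar chains were also lower, with Col11a1 at -3.65, Col5a3 at -3.82, Col27a1 at -4.50 and Col24a1 at -4.54. Their size and order depended on the pseudocount: with 0.1 TPM they were -6.23, -5.92, -5.87 and -7.50. Their dermis means were 15.8 TPM for Col5a3, 17.4 TPM for Col11a1, 24.2 TPM for Col24a1 and 33.6 TPM for Col27a1. Col11a1 varied most within dermis, at 25.2, 2.79 and 24.1 TPM, and without dermis replicate 2 its difference was -4.57. The cartilage fibrillar genes Col2a1 and Col11a2 did not exceed 0.33 and 0.89 TPM and were not tested.

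Fibril-associated collagens (FACITs) attach to fibril surfaces, and their 3 tested members split in how much of their level the epidermis kept. Col12a1, which binds type I fibrils, was the most abundant, at 3639, 1496 and 1825 TPM in dermis and 21.8, 10.6 and 22.0 TPM in epidermis (-6.88 ± 0.42, adjusted p = 2.4e-05). Col14a1, its closest relative, stood at 77.4, 80.1 and 145 TPM in dermis. In epidermis Col14a1 was listed at 0 in replicates 1 and 2 and at 0.07 TPM in replicate 3 (-6.58 ± 0.28, adjusted p = 1.1e-05). With a pseudocount of 0.1 TPM its difference was -9.66. Col16a1 reached 315, 165 and 437 TPM across dermis replicates, compared with 22.8, 27.2 and 33.1 TPM across epidermis replicates, a difference of -3.32 ± 0.37 (adjusted p = 0.00035). Its epidermis mean was 9.07% of its dermis mean, against 0.78% for Col12a1 and 0.0231% for Col14a1, and it ranked 3 among collagen transcripts of the epidermis.

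The other 6 FACIT genes were below the filter. Col20a1 stood at 0.96, 3.14 and 9.88 TPM in dermis and at most 0.41 TPM in epidermis, and Col9a3 at 0.57, 0.25 and 3.11 TPM in dermis and at most 0.40 TPM in epidermis. Col9a1, Col9a2, Col19a1 and Col22a1 did not exceed 1.74 TPM in any library.

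Type VI collagen forms beaded microfilaments around cells, and each of its 3 classical chains was lower in epidermis. Col6a1 had dermis levels of 954, 798 and 1108 TPM and epidermis levels of 1.17, 0.29 and 3.95 TPM (-8.62 ± 0.47, adjusted p = 1.7e-05). Col6a2 measured 793, 540 and 797 TPM in the dermis libraries and 0.91, 0.14 and 3.24 TPM in the epidermis libraries (-8.38 ± 0.47, adjusted p = 1.9e-05). Col6a3 reached 728, 437 and 667 TPM across dermis replicates, compared with 1.99, 0.57 and 2.35 TPM across epidermis replicates (-7.90 ± 0.35, adjusted p = 1.1e-05). No library of one compartment overlapped the other for any of the 3. With a pseudocount of 0.1 TPM the differences were -9.55 for Col6a1, -9.55 for Col6a2 and -8.63 for Col6a3. The alternative chains Col6a4, Col6a5 and Col6a6, which lie side by side on chromosome 9, did not exceed 2.14 TPM and were not tested.

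Among basement membrane chains, Col4a1 and Col4a2, the ubiquitous pair, were lower in epidermis. Col4a1 had dermis levels of 380.1, 289 and 224 TPM and epidermis levels of 2.46, 2.01 and 4.46 TPM (-6.25 ± 0.30, adjusted p = 1.3e-05). Col4a2 measured 100.3, 80.6 and 71.6 TPM in the dermis libraries and 0.68, 0.32 and 1.80 TPM in the epidermis libraries (-5.52 ± 0.31, adjusted p = 2e-05). Unlike the fibrillar chains, both were lowest in dermis replicate 3. The 5 markers of endothelial cells, which are known to make these chains, summed to 344, 259 and 216 TPM in dermis replicates 1, 2 and 3. Of these, Cldn5 was lowest in replicate 1 and the other 4 were lowest in replicate 3, and their part was not tested. With a pseudocount of 0.1 TPM the difference of Col4a2 was -6.61. Col4a1 and Col4a2 lie head to head on chromosome 8 and overlap by 22 bases, and the sources used here do not say whether counting used strand, so reads in that overlap are uncertain.

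The other type IV chains were near the limit of detection. Col4a5 reached 0.83, 1.12 and 0.99 TPM across dermis replicates, compared with 2.13, 0.63 and 0.71 TPM across epidermis replicates, and its head-to-head neighbour on chromosome X, Col4a6, at 0.17, 0.88 and 0.11 TPM in dermis and 1.39, 0.56 and 0.87 TPM in epidermis. These chains are known from the epidermal basement membrane, and in these libraries their groups overlapped. Col4a3 and Col4a4 did not exceed 0.58 TPM.

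The chains of the dermal-epidermal junction stood apart from the fibrillar genes. Col17a1 (chr19:47646344-47692094, minus strand), the hemidesmosomal collagen of basal keratinocytes, stood at 83.1, 35.4 and 71.9 TPM in epidermis and 10.3, 28.5 and 1.92 TPM in dermis. The highest dermis library, replicate 2, lay just below the lowest epidermis library, and the groups did not overlap. The difference was 2.61 ± 0.79 (SE, adjusted p = 0.026). It was 3.40 (adjusted p = 0.0048) without dermis replicate 2 and 1.73 (adjusted p = 0.040) without dermis replicate 3. The call was lost without dermis replicate 1 (adjusted p = 0.065), epidermis replicate 1 (0.078) or epidermis replicate 3 (0.067) and without the filter (0.062).

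Col17a1 varied 14.8-fold among dermis libraries. As a percentage of the epidermis mean it stood at 16.2%, 44.8% and 3.03% in dermis replicates 1, 2 and 3. The median of the 5 basal keratinocyte markers in the same libraries was 15.0%, 39.6% and 3.42%, and that of the 6 differentiating keratinocyte markers 1.13%, 22.7% and 0.507%. The order of the dermis libraries was the same for Col17a1 and for the basal markers Krt14, Krt5 and Trp63, but not for Krt15 and Itgb4. The part of keratinocyte RNA in it was not tested.

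**Figure D3:**
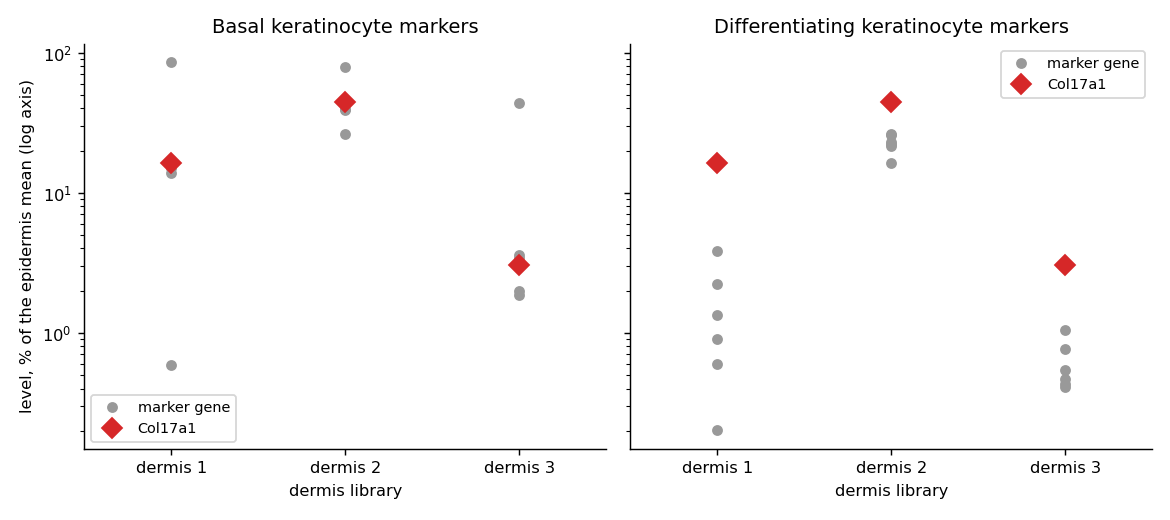
Level of Col17a1 (diamonds) and of keratinocyte marker genes (grey points) in the 3 dermis libraries, as a percentage of each gene's epidermis mean (log axis), with basal markers on the left and differentiating markers on the right. Col17a1 stands at 16.2%, 44.8% and 3.03%, among the basal markers and above every differentiating marker.

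Col7a1 (chr9:108953586-108984875, plus strand), the anchoring fibril collagen, made by both keratinocytes and fibroblasts, was the most abundant collagen transcript of the epidermis, at 88.2, 53.8 and 82.3 TPM. It was higher still in dermis, at 654, 404 and 512 TPM, and the groups did not overlap. The difference was -2.80 ± 0.28 (SE, adjusted p = 0.00022). Its epidermis level was 16.8%, 10.3% and 15.7% of the dermis mean in replicates 1, 2 and 3, where that of Col1a1 was 0.0160% to 0.161%.

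The other 3 transmembrane collagens were low and were reduced in epidermis. Col13a1, found at cell adhesion sites, averaged 3.86 ± 0.667 TPM in dermis and 0.613 ± 0.805 TPM in epidermis (SD, n = 3 each), a difference of -1.69 (adjusted p = 0.0049). Col25a1 stood at -1.64 (adjusted p = 0.00039), from 2.92 to 0.263 TPM. Col23a1 stood at -1.14 (adjusted p = 0.0073), from 3.26 to 0.973 TPM, and this call was lost under quantile normalization (-0.33, adjusted p = 0.24), where Col25a1 stood at -0.81 and Col13a1 at -0.90. With a pseudocount of 0.1 TPM the differences were -3.09 for Col13a1, -3.16 for Col25a1 and -1.75 for Col23a1.

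The multiplexins, basement membrane collagens whose ends can be released as fragments such as endostatin, differed from each other. Col18a1 had dermis levels of 86.9, 61.2 and 69.3 TPM and epidermis levels of 16.1, 15.2 and 22.1 TPM (-1.97 ± 0.23, adjusted p = 0.00045). Its epidermis mean was 24.6% of its dermis mean. Col15a1 averaged 18.9 ± 5.55 TPM in dermis and 0.383 ± 0.275 TPM in epidermis, 2.03% of its dermis mean (-3.83, adjusted p = 4.6e-05), and -5.46 with a pseudocount of 0.1 TPM.

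Of the network-forming types VIII and X, only Col8a1, known from endothelium and injured vessels, was tested. It measured 80.7, 51.5 and 154 TPM in the dermis libraries and 0.36, 0.31 and 0.61 TPM in the epidermis libraries (-5.94 ± 0.39, adjusted p = 3.2e-05; -7.40 with a pseudocount of 0.1 TPM). Col8a2 stood at 7.43, 0.27 and 13.0 TPM in dermis, and the hypertrophic cartilage gene Col10a1 did not exceed 0.26 TPM. Col26a1 reached 17.2, 19.4 and 33.2 TPM across dermis replicates, compared with 1.30, 1.16 and 0.53 TPM across epidermis replicates (-3.57 ± 0.31, adjusted p = 0.00011; -4.43 with a pseudocount of 0.1 TPM). Col28a1, known in the mouse from peripheral nerve, stood at 0.49, 1.43 and 4.05 TPM in dermis and was listed at 0 in all 3 epidermis libraries. The sum of the 4 Schwann cell markers had the same order in dermis, at 9.16, 39.8 and 85.2 TPM in replicates 1, 2 and 3, and Col20a1, at 0.96, 3.14 and 9.88 TPM, followed it too. This order was not particular to Col28a1 and Col20a1. Among others, Col13a1, Col14a1, Col23a1, Col26a1 and the skeletal muscle markers Acta1 and Ckm had it too. The part of nerve tissue in the levels of Col28a1 and Col20a1 was not tested.

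**Figure D4:**
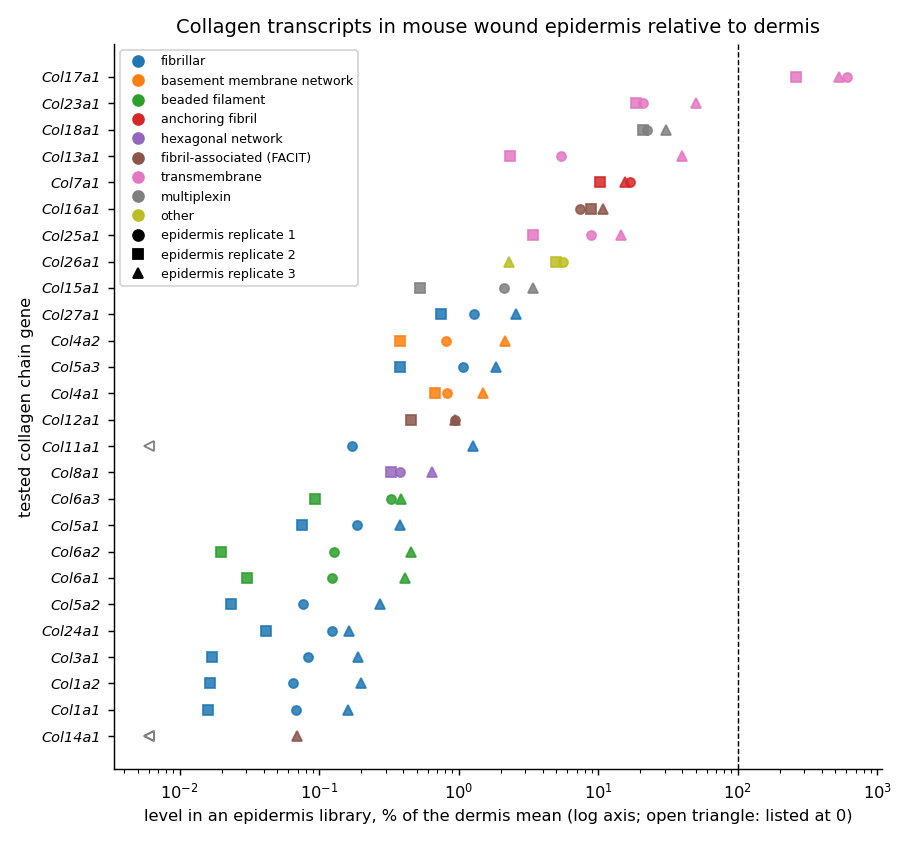
Level of each tested collagen chain gene in the 3 epidermis libraries (circle, square and triangle for replicates 1, 2 and 3) as a percentage of its dermis mean, on a log axis, coloured by structural class; the dashed line marks 100.0% and open triangles at the left mark libraries listed at 0. The members spread over several orders of magnitude, from 0.0231% for the Col14a1 mean to 468% for the Col17a1 mean, and replicate 2 alone is the lowest for 23 of the 26 genes.

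Most tested members had the same order of epidermis libraries, and the same replicates were the lowest and the highest for most genes. Epidermis replicate 2 was the lowest of the 3 for 23 of 26 members, the exceptions being Col14a1, Col16a1 and Col26a1, and replicate 3 was the highest for 23, the exceptions being Col7a1, Col17a1 and Col26a1. Over all genes tested, replicate 2 was the lowest for 58.1% and replicate 3 the highest for 53.5%. In dermis, replicate 2 was the lowest for 18 of the 26 members, and for 30.5% of all genes. The exceptions were Col17a1, which was highest there, and Col4a1, Col4a2, Col13a1, Col14a1, Col23a1, Col25a1 and Col26a1.

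Chain ratios asked whether partners kept their proportions, since type I collagen is built from Col1a1 and Col1a2 chains and type VI from 3 different chains. The ratio of Col1a2 to Col1a1 TPM was 0.243, 0.271 and 0.278 in dermis and 0.249, 0.268 and 0.324 in epidermis. The ratios overlapped between compartments (log2 difference 0.08, two-sided exact permutation test p = 0.7, adjusted p = 0.7 over 4 ratios). Without epidermis replicate 3 it was -0.03. The ratio of Col3a1 to Col1a1 was 0.438, 0.422 and 0.499 in dermis and 0.558, 0.483 and 0.541 in epidermis, also overlapping (log2 difference 0.22, exact p = 0.2, adjusted p = 0.27).

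A pair of ratios separated the compartments. Col12a1 to Col1a1 was 0.0958, 0.0634 and 0.0535 in dermis and 0.999, 2.07 and 0.427 in epidermis (log2 difference 3.80, exact p = 0.1, adjusted p = 0.2). Col17a1 to Col7a1 was 0.0157, 0.0703 and 0.00375 in dermis and 0.943, 0.657 and 0.873 in epidermis (log2 difference 5.66, exact p = 0.1, adjusted p = 0.2). With 3 libraries a group 0.1 is the smallest p possible. The separation of Col17a1 to Col7a1 was fixed by the levels above, where Col17a1 was higher and Col7a1 lower in every epidermis library. Its p-value therefore adds nothing to those levels. The log2 difference of Col12a1 to Col1a1 was 4.39 without epidermis replicate 3 and 3.25 without replicate 2, and that of Col17a1 to Col7a1 was 4.61 without dermis replicate 3 and 6.73 without dermis replicate 2.

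Of the remaining ratios, Col4a5 to Col4a1 and Col4a6 to Col4a5 had a partner under 1 TPM in dermis libraries too and are not given. The others had a partner under 1 TPM in some epidermis library and are given for dermis. Col6a2 to Col6a1 was 0.743 ± 0.0793 and Col6a3 to Col6a1 0.638 ± 0.112 (SD, n = 3). Col5a2 to Col5a1 was 0.520 ± 0.0602, Col5a1 to Col1a1 0.0286 ± 0.00332 and Col4a2 to Col4a1 0.287 ± 0.0288. Col18a1 exceeded Col15a1 by 3.91 ± 0.416 times. These values compare TPM across genes, and reads shared between related chains could affect them.

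The genes that make collagen were mostly lower in the epidermis with their substrates. Of 36 genes for collagen biosynthesis and cross-linking 32 were tested, and 26 were lower and 0 higher (background 39.3% lower and 17.0% higher). Of the 32, 13 were under 1 TPM in at least 1 epidermis library and passed the filter only with the dermis libraries. Among the other 19, 14 were lower, 0 higher and 5 not called, where 28.1% of genes so detected were lower and 22.3% higher. Across these and the receptor genes, the smallest adjusted p among those lower belonged to Pcolce, Adamts2, Fkbp14, Lox, Fkbp10 and the integrin gene Itga11. All of them but Fkbp10 were under 1 TPM in at least 1 epidermis library and passed the filter only with the dermis libraries. Pcolce, an enhancer of procollagen cleavage, had dermis levels of 349, 220.4 and 464 TPM and epidermis levels of 0.59, 0.72 and 1.38 TPM (-7.47 ± 0.32, adjusted p = 1.1e-05). Adamts2, which removes the amino propeptide, stood at -5.96, and Fkbp14 and Fkbp10, prolyl isomerases of the endoplasmic reticulum, at -5.54 and -5.19. Lox, which starts cross-linking, measured 128, 67.2 and 137 TPM in the dermis libraries and 0.07, 0.13 and 0 TPM in the epidermis libraries, and all 5 lysyl oxidase genes were lower, from -6.65 for Lox (-9.39 with a pseudocount of 0.1 TPM) to -2.32 for Loxl4. None of these 5 reached 1 TPM in an epidermis library.

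Other steps showed members that did not pass. P4hb, which encodes protein disulfide isomerase, the shared subunit of prolyl 4-hydroxylase, reached 464, 305 and 398 TPM across dermis replicates, compared with 266, 389.9 and 280 TPM across epidermis replicates (-0.32, adjusted p = 0.32), while its catalytic partners P4ha1, P4ha2 and P4ha3 stood at -2.27, -3.17 and -4.99. Under median-of-ratios scaling P4hb stood at 0.15. Ppib, a prolyl isomerase, had dermis levels of 398, 321 and 434 TPM and epidermis levels of 246, 259.7 and 289 TPM. It did not pass (-0.53, adjusted p = 0.063) but was called without dermis replicate 2 (-0.65, adjusted p = 0.037), under quantile normalization (-0.78, adjusted p = 0.017) and with the collagen chain genes left out of the total (-0.62, adjusted p = 0.037). P3h4, a partner of lysyl hydroxylase, measured 46.7, 44.0 and 76.7 TPM in the dermis libraries and 58.7, 47.8 and 62.8 TPM in the epidermis libraries. Its difference was 0.05 (adjusted p = 0.88), and -0.05 without dermis replicate 1, -0.09 without dermis replicate 2 and -0.03 without epidermis replicate 3. Mia2, which helps load large procollagens into transport carriers, reached 43.2, 40.1 and 33.8 TPM across dermis replicates, compared with 44.8, 52.3 and 44.4 TPM across epidermis replicates. Its difference was 0.27 (adjusted p = 0.26), and was called higher under median-of-ratios scaling (0.73, adjusted p = 0.024). The remaining 2 that did not pass were P3h2, at 0.32 (0.87 and called under quantile normalization, adjusted p = 0.043), and Tll1, at -0.51 (0.36 under quantile normalization).

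Of 10 collagen receptor genes 7 were tested, with 6 lower and 1 higher (background 39.3% lower and 17.0% higher). Itga1, Itga11 and Lair1 passed the filter only with the dermis libraries, and among the other 4, 3 were lower and 1 higher (28.1% and 22.3% of genes so detected). Ddr1, the discoidin domain receptor of epithelial cells, stood at 14.7, 15.7 and 16.1 TPM in epidermis and 3.32, 4.71 and 3.87 TPM in dermis, without overlap (1.74 ± 0.20, adjusted p = 0.0004). Ddr2, its mesenchymal counterpart, fell by 1.80 (adjusted p = 0.0029). The integrin chains Itga11, Itgb1 and Itga1 stood at -4.81, -3.46 and -3.02, the collagen uptake receptor Mrc2 at -3.18 and the leukocyte receptor Lair1 at -2.16. Itga2, the integrin chain known from keratinocytes, did not pass the filter, with means of 0.587 TPM in dermis and 0.223 TPM in epidermis.

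**Figure D5:**
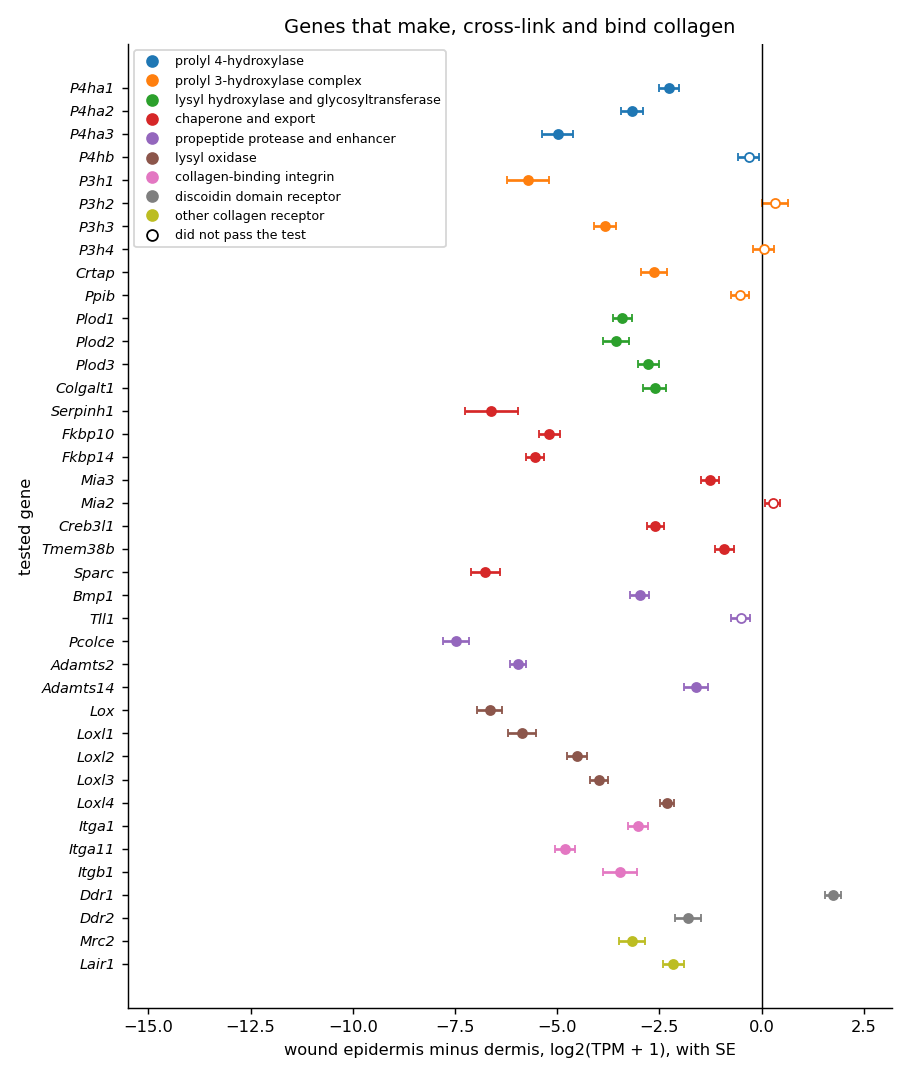
Difference between wound epidermis and wound dermis in log2(TPM + 1), with its SE, for the 39 tested genes that make, cross-link or bind collagen, coloured by role; open points did not pass an adjusted p of 0.05. All lie below 0 except Ddr1, which was called higher, and P3h2, P3h4 and Mia2, which were not called.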

How the data were processed

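Gene expression was measured by SMART-seq2 in 6 mouse wound libraries. The deposited values are TPM made by the authors. Bowtie 1.0.0, RSEM 1.2.31 and the build mm10 are named in the submitters' processing notes, without settings. The labels give 2 RNA inputs and 2 read lengths but not which library had which, and no batch term was possible from them. TPM keeps no read depth, so depth could not be weighed, and precision was judged from the spread between libraries. The table lists genes by Ensembl identifier, and GENCODE M21 (mm10) paired 49289 of 49548 with symbols and gave coordinates and coding sequences. The rat table was normalized separately and was not used here.

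The test was limma 3.58.1 (R 4.3.3, mean-variance trend) on log2(TPM + 1), over the 15982 genes that reached 1 TPM in 3 or more of the 6 libraries, and p-values were adjusted by Benjamini-Hochberg with a threshold of 0.05. This pseudocount understates the change of low genes. The same code was tested on simulated data. There, changes were placed only in genes of high mean level with normally distributed noise, so genes near 1 TPM were not covered. Summed levels and chain ratios were tested by exact permutation with scipy 1.17.1. Glycine triplets were counted in the longest complete coding sequence of each gene. Genes were named by a rule: members with a group mean of at least 50 TPM, members higher or not called, tested members of types IV, VII and XVII, and, from the biosynthesis and receptor lists, the 6 lowest adjusted p among those lower, those higher and 4 not called. P4ha1 to P4ha3, P3h2, Tll1, Tmem38b, Loxl4 and the remaining receptors were named after their values were seen. The members and lists were chosen with earlier results of these data known. Alternatives were other pseudocounts, filters and scalings, a fit without the trend, a replicate block and leaving out each library with the tested genes held fixed.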

Additional observations from a re-analysis of the deposited data

How the results depend on the processing

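Of the 26 tested collagen chain genes, 25 were lower under every leave-one-out fit, and 21 to 29 were lower under the other settings, of 22 to 44 tested. Col17a1 was the only member ever called higher, and the count of members higher was 0 without the filter and 0 to 1 with each library left out. The count of biosynthesis genes higher was 1 under median-of-ratios scaling and 1 under quantile normalization, against 0 otherwise, and the count lower was 26 to 27 with libraries left out. The receptor counts stayed at 6 lower and 1 higher with libraries left out. With libraries left out, the summed level ranged from -8.15 to -7.57, the ratio of Col1a2 to Col1a1 from -0.03 to 0.16, Col3a1 to Col1a1 from 0.17 to 0.29, Col12a1 to Col1a1 from 3.25 to 4.39 and Col17a1 to Col7a1 from 4.61 to 6.73 (log2 differences). Signs that turned belonged to values that were not called: P4hb at 0.15 under median-of-ratios scaling, Tll1 at 0.36 under quantile normalization, and P3h4 at -0.04 with the collagen chain genes left out of the total, -0.05 and -0.09 without dermis replicates 1 and 2 and -0.03 without epidermis replicate 3, with a range over left-out libraries of -0.09 to 0.30. The cause was not tested. Tmem38b lost its call in a pair of scalings, at -0.52 by median of ratios (adjusted p = 0.12) and -0.22 by quantiles (adjusted p = 0.48).

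A pseudocount of 0.1 TPM moved 17 of the 26 collagen differences and 14 of the 39 biosynthesis and receptor differences by over 1.5 times, all farther from 0, and ended no call. Among the latter were Pcolce at -8.45, Adamts2 at -8.04, Fkbp14 at -7.36, P4ha3 at -6.92, Loxl4 at -5.00, Itga11 at -7.44, Itga1 at -4.78 and Lair1 at -3.93. The size of a difference near 1 TPM thus depends on the pseudocount. Quantile normalization moved 6, among them Col5a3 to -3.16, Col15a1 to -3.21 and Col26a1 to -2.96. The median of all genes was -0.42, -0.03 under median-of-ratios scaling and 0.08 under quantile normalization, and of all called genes 30.2%, 47.2% and 52.8% were higher in epidermis. The labels give no shared animal, so the replicate numbers were not taken as pairs. Deviations from the group mean correlated at -0.135, 0.086 and 0.189 between same-numbered libraries, which cannot show whether animals were shared. With the replicate block 25 collagen chain genes were lower and 1 higher, as without it. The same held for the 26 biosynthesis genes lower and for the receptor genes, 6 lower and 1 higher.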
